A study of Mus musculus with 12 samples.

Results

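The transcripts described here encode subunits of the proteasome that exist in an inducible and a constitutive form. The inducible members are the catalytic subunits Psmb8, Psmb9 and Psmb10 of the immunoproteasome and the activator subunits Psme1 and Psme2. The constitutive members are Psmb5, Psmb6 and Psmb7, the catalytic subunits that the inducible ones replace, and Psme3, the third member of the Psme1 activator family. They were found by mapping the Ensembl identifiers of the gene count table to symbols, which gave 9 of the 55401 genes in the table, and all 9 were among the 20818 genes with enough counts to be tested.

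RNA was sequenced from 12 mouse tumors taken at day 21 after implantation of TC2Ras cells, a Ras-driven mouse prostate cancer line, into the flanks. The 4 groups of 3 tumors were Control (125000 TC2Ras cells and 0 ppb inorganic arsenic, iAs), ASC (the same implant with 1% adipose-derived stromal cells, ASC), A300 (TC2Ras cells alone, with 300 ppb iAs in the drinking water) and ASC300 (the ASC implant together with 300 ppb iAs). All mice, Control mice included, first received low-arsenic chow and purified water. Per the study's methods, the tumors of both flanks of a mouse were combined, and the ASC came from male C57BL/6 mice that carry GFP under the ubiquitin C promoter. The strain, age and sex of the recipients are not given in the sources used here.

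The proteasome is a barrel of stacked rings that cuts proteins marked with ubiquitin into peptides, and its proteolytic sites lie in 3 of the beta subunits. Interferon gamma leads cells to build in other beta subunits at those sites: Psmb8 (beta 5i) in place of Psmb5, Psmb9 (beta 1i) in place of Psmb6 and Psmb10 (beta 2i) in place of Psmb7. The resulting immunoproteasome, which immune cells also carry constitutively, favours peptides that fit the groove of MHC class I. Psme1 and Psme2 (PA28 alpha and beta) form a cap that opens the barrel in the cytoplasm, while Psme3 (PA28 gamma) forms a cap in the nucleus.

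The libraries held 39157647 to 55168642 counts, and the members were counted between 316 times (Psmb9) and 11509 times (Psmb6) in a single tumor. Levels are given as CPM, counts per 1000000 counts of the library, after scaling by TMM factors, which lay between 0.9535 and 1.054. Control replicate 1 stood apart from the other tumors on the first principal component (101.8, against -64.88 to 22.53 for the others) and held 171.2 summed CPM of 6 B cell and plasma cell markers, against 2.048 to 11.12 elsewhere. The inducible genes are therefore also given without it below for the comparisons with Control. Control replicate 2 and A300 replicate 1 held 1368 and 1390 summed CPM of 4 muscle markers, against at most 272.0 elsewhere. ASC replicate 2 held 148.5 summed CPM of 4 adipocyte markers, against at most 79.22 elsewhere. The labels name the cell type as adipose-derived stromal cells for all tumors, including those implanted without ASC. Fibroblast and stromal markers (6 genes, among them Col1a1 and Dcn) were high in every tumor, at 3611 to 6050 summed CPM, and did not separate tumors with ASC from those without. In whole tumors, more RNA of a gene per cell and more cells that express it cannot be told apart.

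The inducible genes are spread over 3 chromosomes. On the GRCm38 annotation (GENCODE M21), Psmb8 lies at chr17:34197721-34201454 and Psmb9 at chr17:34181987-34187764, in the MHC region. Psmb10 lies at chr8:105935735-105938444. Psme1 and Psme2 are neighbours at chr14:55578123-55581529 and chr14:55587441-55591113. Of the constitutive genes, Psmb5 is at chr14:54614119-54618022, Psmb6 at chr11:70525367-70527858, Psmb7 at chr2:38588036-38644087 and Psme3 at chr11:101316213-101323537.

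Because the inducible genes rose together in these tumors, the RefSeq windows around their starts (GRCm38.p6, 250 bases before to 50 after each start) were searched on both strands for 2 motifs, and the matching stretches are shown with the motif in capitals and 10 bases on either side. The motifs were 2 copies of GAAA with 2 bases between them, the paired element of interferon regulatory factors (IRF), and TGACNNNGC, the core of the antioxidant response element through which NRF1 and NRF2 act. RefSeq windows were found for 8 of the 9 members, and Psmb7 was not among them. The first line is the Psme1 match, which starts at base 10 of the transcript (chr14:55578493-55578522, plus strand) and reads the IRF element on the opposite strand. The other lines are the Psmb5 match, 47 bases before the start (chr14:54618024-54618052, minus strand), and the Psmb6 match, 9 bases before it (chr11:70525338-70525366, plus strand).
Psme1, IRF element: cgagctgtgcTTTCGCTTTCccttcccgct
Psmb5, antioxidant element core: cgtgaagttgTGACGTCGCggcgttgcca
Psmb6, antioxidant element core: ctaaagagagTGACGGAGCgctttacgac
In GENCODE M21, the Psme1 stretch lies inside the first exon of a longer transcript, while the Psmb5 and Psmb6 stretches lie just before the annotated genes. The whole windows of Psmb8, Psmb9 and Psme1 lie within the annotated genes, so bases before those gene starts were not searched. No match of one motif overlapped another. The IRF element was found in 1 of the 5 inducible genes, and Psmb8, Psmb9, Psmb10 and Psme2 held neither motif in this window. The antioxidant core was found in 2 of the 3 constitutive genes with a window and in none of the inducible ones. These letters are common: of 32851 promoter windows of this length, 3.44% held the IRF element and 12.4% the antioxidant core. The matches describe sequence only.

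The first comparison asks how the inclusion of ASC in the implant changed the subunit transcripts, over both levels of iAs. All 5 inducible genes rose in tumors with ASC, between 1.82-fold (Psme1) and 4.17-fold (Psmb9), and none of the 4 constitutive genes was called. Genes are said to rise, to fall or to be called here where edgeR's quasi-likelihood test gave an adjusted p below 0.05 (Benjamini-Hochberg) together with a change of 1.5-fold or more. Across all genes tested, 1.36% were called higher and 0.0865% lower in this comparison. No constitutive gene had an unadjusted p under 0.05, and DESeq2 called none of them either. The median log2 fold change was 1.60 for the 5 inducible genes, 0.02 for the 4 constitutive genes and -0.0042 over all genes.

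Psmb9, the beta 1i subunit, was the least abundant member without ASC and changed most. Its level was 15.4, 9.65 and 6.86 CPM in Control and 10.6, 8.79 and 10.4 CPM in A300. With ASC it was 45.7, 42.2 and 48.4 CPM in ASC and 31.7, 43.7 and 45.7 CPM in ASC300. The lowest tumor with ASC was thus above the highest without. Its log2 fold change over both levels of iAs was 2.06 (SE 0.17, adjusted p = 1.925e-05).

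Psmb8, the chymotrypsin-like beta 5i subunit, had 34.7, 23.2 and 15.4 CPM in Control and 27.6, 19.4 and 25.4 CPM in A300. It had 77.5, 79.7 and 95.2 CPM in ASC and 70.1, 94.7 and 102.1 CPM in ASC300. No tumor with ASC came down to the level of a tumor without ASC, and the log2 fold change was 1.83 (SE 0.18, adjusted p = 6.378e-05). Psmb10, the trypsin-like beta 2i subunit, had 41.7, 36.5 and 32.1 CPM in Control and 47.2, 48.6 and 47.1 CPM in A300. It had 107.1, 104.9 and 159.3 CPM in ASC and 103.1, 144.4 and 142.4 CPM in ASC300. The groups with and without ASC were again separate, with a log2 fold change of 1.60 (SE 0.12, adjusted p = 1.008e-05).

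Of the activator subunits, Psme1 (PA28 alpha) changed less than the catalytic ones. It was at 81.8, 67.4 and 76.2 CPM in Control, 76.2, 87.8 and 89.0 CPM in A300, 131.0, 134.4 and 172.5 CPM in ASC and 119.5, 145.8 and 165.7 CPM in ASC300. The tumors with ASC were all above those without, and its log2 fold change was 0.86 (SE 0.10, adjusted p = 0.0002414). Psme2 (PA28 beta) was at 27.1, 41.0 and 31.3 CPM in Control, 22.7, 41.7 and 25.9 CPM in A300, 65.7, 71.2 and 98.4 CPM in ASC and 40.5, 64.5 and 93.8 CPM in ASC300. Here the groups overlapped, since ASC300 replicate 1 was just below Control replicate 2 and A300 replicate 2. The log2 fold change of Psme2 was 1.19 (SE 0.21, adjusted p = 0.008617). Thus 4 of the 5 inducible genes had every tumor with ASC above every tumor without, where 1.68% of all genes tested did.

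Psme2 shares nearly all of its sequence with Psme2b, a single-exon copy at chr11:48945354-48946190, and reads of one can be assigned to the other. Psme2b took between 29.2% and 62.3% of the summed level of the pair in a tumor. That share was 57.1% in Control replicate 1 and 30.1% and 29.5% in the other Control tumors, so it varied within a group. The summed level was 44.3 to 71.2 CPM without ASC and 100.4 to 152.8 CPM with ASC, with no overlap. Tested as 1 gene, which was chosen after seeing the data, the pair had a log2 fold change of 1.05 (SE 0.11, adjusted p = 0.0002032).

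**Figure D1:**
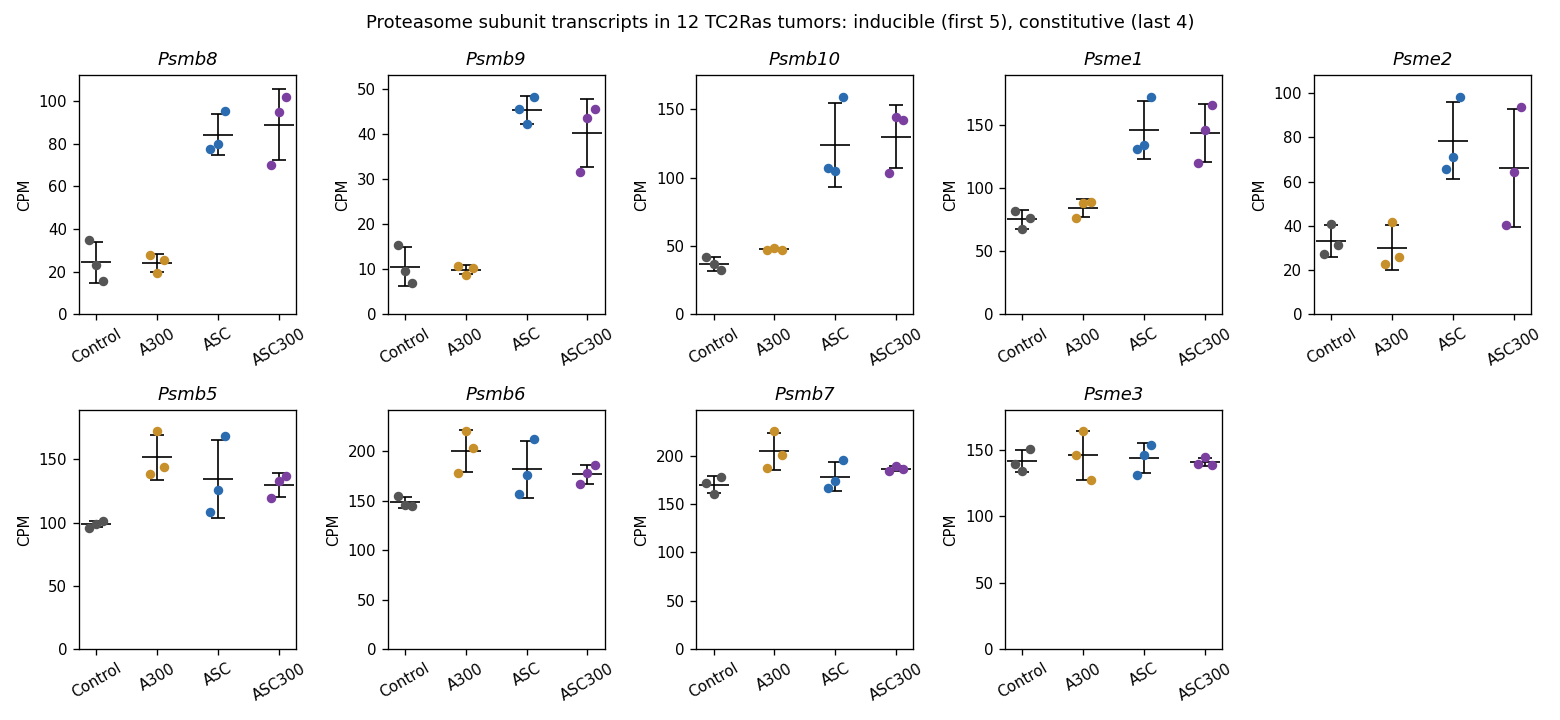
Level of each of the 9 subunit transcripts in every tumor (vertical axes, CPM from 0), by group, with points for tumors, a wide bar for the mean and error bars for the SD of 3 tumors. Psmb8, Psmb9, Psmb10 and Psme1 were higher in all 6 tumors with ASC than in all 6 without, and Psme2 overlapped slightly. Psmb5, Psmb6, Psmb7 and Psme3 overlapped between the tumors with and without ASC. In Psmb5 and Psmb6, the 3 Control tumors were below all other tumors.

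The constitutive counterparts showed no such separation. Psmb5 (beta 5) ranged from 96.1 to 172.2 CPM without ASC and from 108.6 to 168.4 CPM with ASC. Psmb6 (beta 1) ranged from 144.3 to 219.8 CPM without and from 156.4 to 212.5 CPM with ASC. Psmb7 (beta 2) ranged from 160.6 to 225.0 CPM without and from 166.4 to 195.2 CPM with ASC. In each of these genes the highest tumor was A300 replicate 2. The Control tumors alone were below every tumor with ASC in Psmb5 (at most 101.2 CPM) and Psmb6 (at most 154.7 CPM). The share of all genes that did so was not counted. Psme3 (PA28 gamma) was the steadiest in the mean, at 127.2 to 163.7 CPM without and 131.2 to 153.5 CPM with ASC. The 95% confidence intervals of the log2 fold change were -0.10 to 0.32 for Psmb5, -0.11 to 0.22 for Psmb6, -0.16 to 0.10 for Psmb7 and -0.16 to 0.13 for Psme3. All 4 intervals lie below the log2 fold minimum of 0.585. They also lie below the lower end of the interval of Psme1, the least changed inducible gene, which was 0.65 to 1.07. Each of the 4 averages ASC effects without and with iAs that had opposite signs. Psmb5 changed by 0.44 (0.14 to 0.74) in ASC against Control, an interval that passes the fold minimum. In ASC300 against A300 it changed by -0.23 (-0.52 to 0.07).

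The effect of ASC was also read separately in mice without and with iAs, 2 comparisons that share no tumor. Against Control, ASC tumors had 4 of the 5 inducible genes called higher, where 0.706% of all genes were, and against A300, ASC300 tumors also had 4 of 5, where 0.793% of all genes were. The log2 fold changes of Psmb8 were 1.78 (SE 0.25) without iAs and 1.88 (SE 0.25) with iAs. Those of Psmb9 were 2.10 (SE 0.24) and 2.02 (SE 0.24), and those of Psmb10 were 1.75 (SE 0.17) and 1.45 (SE 0.17). Psme1 gave 0.96 (SE 0.14) and 0.77 (SE 0.14). The adjusted p of these 4 genes was at most 0.003979 without iAs and 0.01706 with iAs. The gene that missed was Psme2 in both, with 1.24 (SE 0.30, adjusted p = 0.08847) and 1.14 (SE 0.30, adjusted p = 0.1403). Summed with Psme2b it passed in both, with 1.20 (SE 0.16, adjusted p = 0.002624) and 0.90 (SE 0.16, adjusted p = 0.01894).

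ASC300 tumors against Control, which share the Control tumors with the comparison of ASC, also had 4 of 5 inducible genes called higher, beside 0.783% of all genes. The changes were 1.86 for Psmb8, 1.93 for Psmb9, 1.82 for Psmb10 and 0.93 for Psme1 on the log2 scale, and 1.00 for Psme2 (SE 0.30, adjusted p = 0.1516). Among these comparisons, the call of Psme1 in ASC300 against A300 was the one that depended on single tumors. It was lost without A300 replicate 1, 2 or 3 and without ASC300 replicate 2 or 3, with adjusted p values of 0.05644 to 0.09392 and log2 fold changes of 0.65 to 0.80. Without Control replicate 1, the log2 fold changes in ASC against Control were 2.13 for Psmb8, 2.47 for Psmb9, 1.86 for Psmb10 and 1.03 for Psme1, and in ASC300 against Control 2.21, 2.29, 1.93 and 1.00, with the same 4 genes called in each. In ASC against Control, Psme2 was called by DESeq2, in a fit of these 2 groups alone and with a replicate block, and it was not called under the other alternatives.

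None of the constitutive genes was called in ASC against Control, in ASC300 against Control or in ASC300 against A300 by edgeR, and DESeq2 called none either. In ASC against Control, 1779 of all 20818 genes tested were higher and 1431 lower at an unadjusted p under 0.05. Among them were 2 constitutive genes. These were Psmb5, with a log2 fold change of 0.44 (95% confidence interval 0.14 to 0.74, adjusted p = 0.1716), and Psmb6, with 0.29 (0.05 to 0.53, adjusted p = 0.2355). Without ASC replicate 1, Psmb5 was called, at 0.59 (adjusted p = 0.03736). The same 2 genes had an unadjusted p under 0.05 in ASC300 against Control, with 0.39 and 0.25, and none did in ASC300 against A300, where all 4 values were negative, from -0.23 to -0.05.

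**Figure D2:**
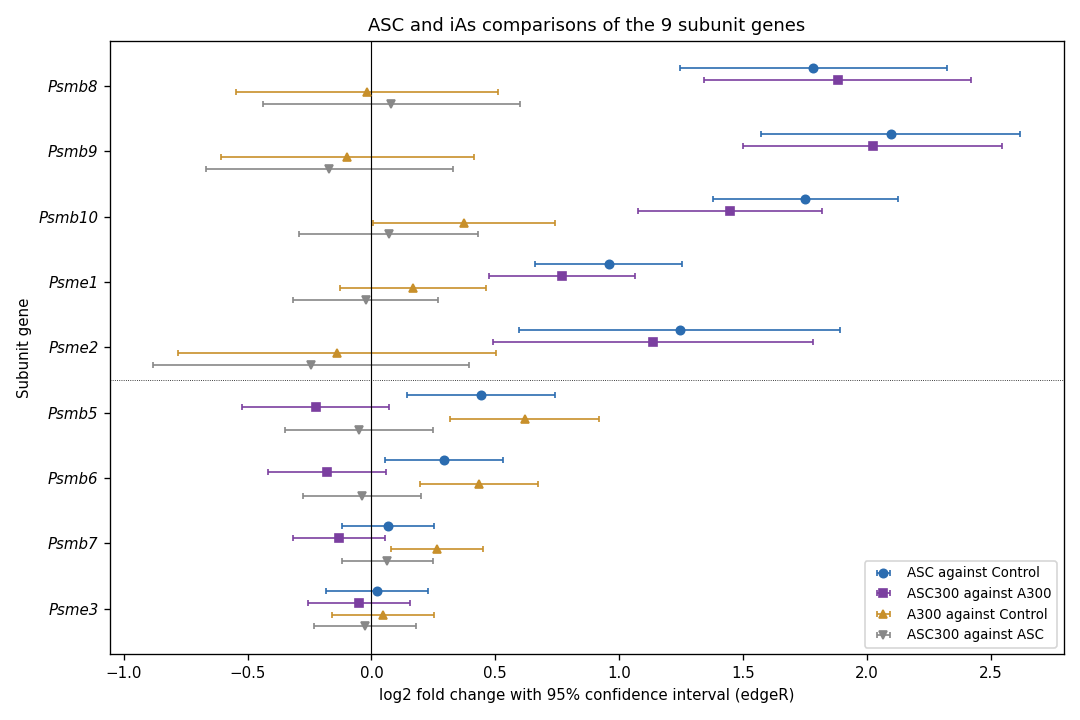
Log2 fold change of each subunit gene (horizontal axis) with its 95% confidence interval from edgeR, for the effect of ASC without iAs (circles) and with iAs (squares) and for the effect of iAs without ASC (upward triangles) and with ASC (downward triangles). The ASC effects of the 5 inducible genes above the dotted line lie between 0.77 and 2.10 and all intervals exclude 0, while the largest effect of iAs is that of Psmb5 without ASC, at 0.62.

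Since an inducible subunit takes the place of its counterpart in the barrel, the ratio of the 2 transcripts was taken within each tumor, which does not depend on library scaling. The log2 ratio of Psmb8 to Psmb5 was -2.09 ± 0.62 in Control, -2.66 ± 0.43 in A300, -0.66 ± 0.17 in ASC and -0.56 ± 0.18 in ASC300 (mean ± SD of 3 tumors). For Psmb9 to Psmb6 it was -3.88 ± 0.53, -4.33 ± 0.29, -1.99 ± 0.19 and -2.14 ± 0.21 in the same order. For Psmb10 to Psmb7 it was -2.22 ± 0.23, -2.10 ± 0.11, -0.55 ± 0.23 and -0.54 ± 0.26. In all 3 pairs every tumor with ASC had a higher ratio than every tumor without. The mean ratio was 3.41-fold higher with ASC for Psmb8 to Psmb5, 4.10-fold for Psmb9 to Psmb6 and 3.05-fold for Psmb10 to Psmb7. A two-sided exact permutation test over tumors within each level of iAs gave p = 0.005 for each pair, which is the smallest that its 400 arrangements allow, and 0.005 after adjustment over the 3 pairs.

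**Figure D3:**
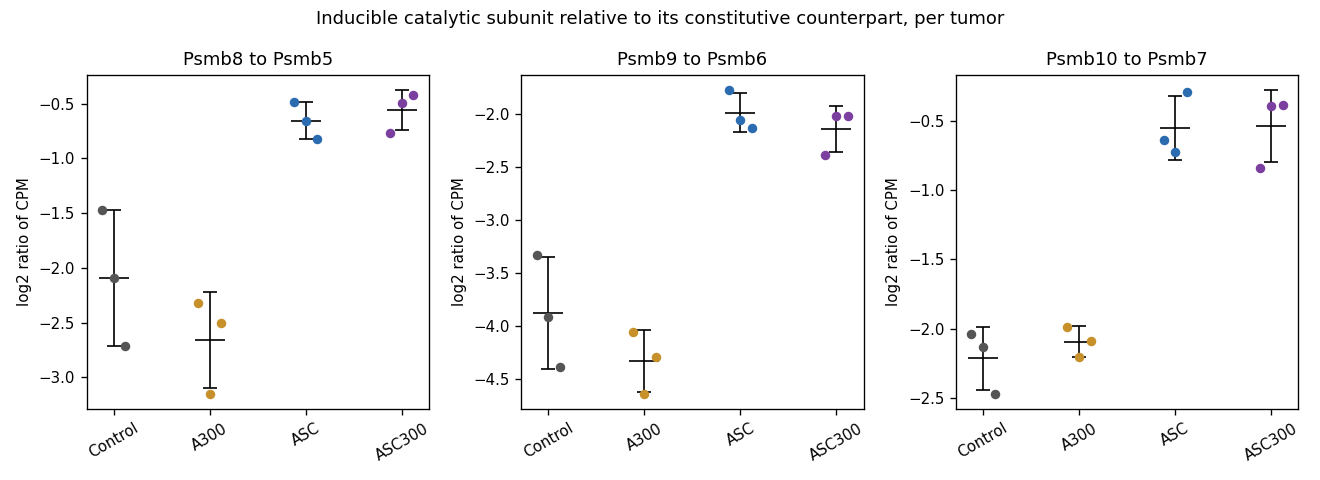
Log2 ratio of each inducible catalytic subunit to its constitutive counterpart (vertical axes, CPM over CPM) in every tumor, with the mean (wide bar) and SD of 3 tumors per group. The lowest tumors with ASC are at -0.82 for Psmb8 to Psmb5, at -2.39 for Psmb9 to Psmb6 and at -0.84 for Psmb10 to Psmb7, and the highest tumors without ASC are at -1.47, -3.33 and -1.99.

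The ASC effect on the log2 ratio was 1.44 without iAs and 2.10 with iAs for Psmb8 to Psmb5, 1.89 and 2.18 for Psmb9 to Psmb6, and 1.66 and 1.56 for Psmb10 to Psmb7. Whether these pairs of values differ was not tested. Control tumors spread most in the Psmb8 ratio, from -2.71 in replicate 3 to -1.47 in replicate 1. The Psmb8 transcripts per kilobase made up 5.85% to 16.6% of the sum with Psmb5 in tumors without ASC and 23.8% to 29.2% in tumors with ASC. For Psmb9 of the sum with Psmb6 the ranges were 2.31% to 5.54% and 10.1% to 14.7%, and for Psmb10 of the sum with Psmb7 they were 13.8% to 18.2% and 33.1% to 41.9%. Of all transcripts of the 6 catalytic subunits, the 3 inducible ones made up 10.3% ± 2.27 in Control, 9.02% ± 1.21 in A300, 25.3% ± 1.20 in ASC and 25.7% ± 2.80 in ASC300 (mean ± SD, n = 3). These are shares of transcripts per length, and subunit protein was not measured here.

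Per kilobase of transcript, the order of the levels in Control tumors ran from Psmb6 (185.8 ± 7.03 RPKM) through Psmb7 (146.6 ± 7.61), Psmb5 (109.9 ± 2.84), Psme1 (67.6 ± 6.54), Psme3 (53.0 ± 3.11), Psme2 (34.4 ± 7.37), Psmb10 (28.0 ± 3.68) and Psmb8 (15.0 ± 5.94) to Psmb9 (7.86 ± 3.20). The SDs overlapped for Psme2 and Psmb10 and for Psmb8 and Psmb9, and for no other neighbours. In ASC tumors Psmb6 (227.4 ± 35.7 RPKM) was still the highest and Psmb9 (33.6 ± 2.29) still the lowest. Psmb10 (94.4 ± 23.5) and Psme2 (81.5 ± 18.2) stood above Psme3 (53.8 ± 4.25) there, and Psme1 (131.3 ± 20.7) came within the SD of Psmb5 (149.3 ± 34.2). Even with ASC, each inducible catalytic transcript remained below its own counterpart in the mean.

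The next question was whether iAs changed these transcripts. In A300 against Control, none of the inducible genes was called by edgeR or DESeq2, and 1 of them, Psmb10, had an unadjusted p under 0.05 (0.0462), with a log2 fold change of 0.37 (95% confidence interval 0.01 to 0.74, adjusted p = 0.198). The intervals for the others were -0.55 to 0.51 for Psmb8, -0.61 to 0.41 for Psmb9, -0.13 to 0.46 for Psme1 and -0.78 to 0.50 for Psme2. The values of Psmb8 (-0.02) and Psmb9 (-0.10) became 0.34 and 0.28 without Control replicate 1, and neither was called. All 4 constitutive genes had a higher mean in A300, and 1 of them was called higher, where 0.701% of all genes were called higher and 1.06% in either direction.

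That gene was Psmb5, at 96.1, 99.0 and 101.2 CPM in Control and 138.4, 172.2 and 144.3 CPM in A300, with no overlap. Its log2 fold change was 0.62 (SE 0.14, adjusted p = 0.04497), just past both thresholds. Psmb6 was at 154.7, 145.8 and 144.3 CPM in Control and 177.7, 219.8 and 203.2 CPM in A300, also without overlap, with 0.43 (SE 0.11, adjusted p = 0.05301). Psmb7 was at 171.6, 160.6 and 178.0 CPM in Control and 187.1, 225.0 and 200.5 CPM in A300, also without overlap. Its log2 fold change was 0.26 (SE 0.09, adjusted p = 0.08986). Psme3 was at 139.3, 133.9 and 150.1 CPM in Control and 146.1, 163.7 and 127.2 CPM in A300, and its groups overlapped (0.05, SE 0.09). How many of all genes tested showed no overlap in this comparison was not counted. The Psmb5 call held in 8 of 20 alternatives. It was lost without any 1 of the Control, A300 or ASC300 tumors or without ASC replicate 2 (adjusted p = 0.05552 to 0.1899), without the filter on low counts (adjusted p = 0.06699) and with an offset for GC content (log2 fold change 0.39, adjusted p = 0.1454), while DESeq2 gave 0.64 (adjusted p = 0.0006879).

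In tumors with ASC, iAs gave no call among the members, in ASC300 against ASC, where 0.0% of all genes were called by edgeR and no member had an unadjusted p under 0.05. DESeq2 called no member either, and 4 genes higher and 7 lower among all it tested. The inducible genes differed by -0.24 (Psme2) to 0.08 (Psmb8) on the log2 scale and the constitutive genes by -0.05 (Psmb5) to 0.06 (Psmb7). The 95% confidence intervals were -0.44 to 0.60 for Psmb8, -0.67 to 0.33 for Psmb9, -0.29 to 0.43 for Psmb10, -0.32 to 0.27 for Psme1 and -0.88 to 0.39 for Psme2, so a change of 1.5-fold is inside the interval for Psmb8, Psmb9 and Psme2 and outside it for Psmb10 and Psme1. The intervals of the constitutive genes, of which Psmb5 had the widest at -0.35 to 0.25, all excluded such a change.

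Over both levels of ASC, no member was called for iAs, and 0.0% of all genes were. At an unadjusted p under 0.05, 1564 of all 20818 genes tested were higher and 1761 lower. None of the inducible genes and 3 of the constitutive ones had an unadjusted p under 0.05: Psmb5 with a log2 fold change of 0.28 (adjusted p = 0.2116), Psmb6 with 0.20 (adjusted p = 0.2564) and Psmb7 with 0.16 (adjusted p = 0.23). The interaction, which is the ASC effect with iAs minus the ASC effect without it, was called for 0.0% of all genes and for no member. For neither of these effects did DESeq2 call a member. Among the inducible genes, none of which had an unadjusted p under 0.05, the interaction was -0.07 for Psmb9 (95% confidence interval -0.79 to 0.64), and it was -0.46 without Control replicate 1. It was -0.67 for Psmb5 (-1.09 to -0.25, unadjusted p = 0.004763, adjusted p = 0.3088) and -0.47 for Psmb6 (-0.81 to -0.13, unadjusted p = 0.009951, adjusted p = 0.3088).

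The rest of the proteasome was examined as 38 tested genes: 11 other subunits of the 20S core, 19 of the 19S regulatory particle that recognises and unfolds ubiquitinated proteins, and 8 assembly chaperones. Over both levels of iAs, none was called for ASC by edgeR or DESeq2. An unadjusted p under 0.05 was found for 5, beside 1443 higher and 825 lower of all 20818 genes tested. Of the 38 genes, 31 were higher, with a median log2 fold change of 0.06 and a range of -0.10 to 0.44. The highest was Psmg4, a chaperone of alpha ring assembly, at 8.29 to 14.7 CPM without and 11.7 to 18.2 CPM with ASC (0.44, adjusted p = 0.129). DESeq2 called Psmg4 higher in ASC and in ASC300 against Control, where edgeR gave 0.67 (adjusted p = 0.1186) and 0.73 (adjusted p = 0.08173). Pomp, the chaperone that brings the beta subunits into the nascent barrel and is needed for both forms, changed by 0.15 (SE 0.06, adjusted p = 0.3443). Psmg1, another alpha ring chaperone, changed by 0.21 (adjusted p = 0.4144). Neither Psme4 (PA200), an activator of the nucleus, nor Psmf1 (PI31), which binds the 20S core, was called, with -0.04 and 0.13. Nfe2l1, Nfe2l2, Ddi2 and Ngly1, which act in the control of proteasome genes, lay between -0.02 and 0.08 for ASC, and none of the 4 was called or had an unadjusted p under 0.05.

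In A300 against Control, 30 of the same 38 genes were higher, with a median log2 fold change of 0.17 where the median of all genes was -0.0278. None was called by edgeR or DESeq2, and 16 had an unadjusted p under 0.05. At that threshold, 2324 of all 20818 genes tested were higher and 2701 lower. Adrm1, the ubiquitin receptor of the 19S particle, passed the adjusted p but not the fold minimum, with 0.48 (SE 0.11, adjusted p = 0.04497). Psme4 did so in the other direction, at 122.9, 128.0 and 128.3 CPM in Control and 90.9, 93.1 and 93.1 CPM in A300 (-0.45, SE 0.08, adjusted p = 0.04038). Psmb4, a core subunit without a proteolytic site, gave 0.48 (adjusted p = 0.05447). These 3 genes were singled out after their values were seen. Of the 4 genes that act in the control of proteasome genes, none was called by edgeR or DESeq2 in A300 against Control, and Ngly1 (-0.34, adjusted p = 0.06934), Nfe2l2 (-0.32, adjusted p = 0.09367) and Ddi2 (-0.29, adjusted p = 0.09209) had an unadjusted p under 0.05. In ASC300 against ASC, 18 of the 38 were higher, with a median of -0.001.

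**Figure D4:**
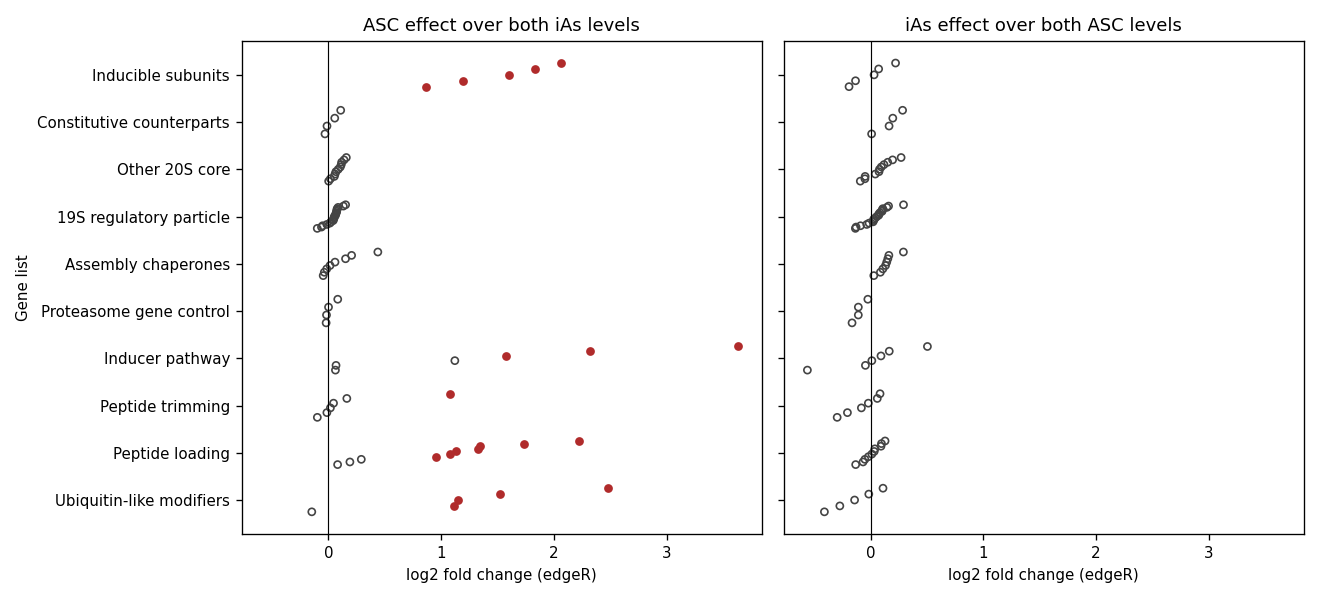
Log2 fold change (horizontal axes) of every tested gene of 10 lists for the effect of ASC over both levels of iAs (left) and of iAs over both levels of ASC (right), with called genes filled in red and the others open. On the left the filled points are 5 inducible subunits, 3 genes of the inducer pathway, 1 trimming gene, 7 loading genes and 4 ubiquitin-like modifier genes, all at 0.86 or more, and on the right no point is filled.

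Among the genes that act upstream of the immunoproteasome, 3 of the 6 reported were called higher with ASC over both levels of iAs. Irf1, the interferon regulatory factor that acts on inducible subunit genes, rose from 50.7 to 68.1 CPM without ASC to 143.3 to 188.4 CPM with it (1.57, SE 0.09, adjusted p = 1.369e-06). Nlrc5, the transactivator of MHC class I genes, rose from 5.11 to 21.3 CPM to 42.9 to 65.4 CPM (2.32, SE 0.22, adjusted p = 5.924e-05). In both genes the tumors with and without ASC did not overlap. Ifng itself was scarce, with at most 178 counts in a tumor, at 0.0 to 0.406 CPM without ASC and 1.72 to 3.52 CPM with ASC (3.63, SE 0.57, adjusted p = 0.003848). The receptor genes Ifngr1 and Ifngr2 were not called, with 0.06 and 0.07, nor was Tnf by edgeR, with 1.12 (adjusted p = 0.07651), though DESeq2 called it. Read within each level of iAs, Ifng had log2 fold changes of 3.86 in ASC against Control (adjusted p = 0.05633) and 3.41 in ASC300 against A300 (adjusted p = 0.08134), which missed the threshold in edgeR, and DESeq2 called the second. In ASC300 against Control it was called (4.14, adjusted p = 0.03472), while Irf1 and Nlrc5 were called in all 3 of these comparisons. In A300 against Control none of the 6 was called by edgeR, with 1 at an unadjusted p under 0.05, which was Nlrc5 (-1.11, adjusted p = 0.06213) and which DESeq2 called lower.

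Of 10 genes that load peptides onto MHC class I, 7 were called higher with ASC: Tap1, Tap2, Tapbp, Tapbpl, B2m, H2-K1 and H2-D1. Tap1, which forms the peptide transporter with Tap2, lies next to Psmb9 on the opposite strand and its RefSeq window overlaps that of Psmb9. It was at 16.3 to 40.0 CPM without ASC and 103.5 to 140.8 CPM with ASC (2.22, SE 0.19, adjusted p = 2.361e-05), beside the 2.06 of Psmb9. Tapbp (tapasin), which holds the transporter to MHC class I, was at 112.8 to 146.2 CPM without and 236.4 to 324.1 CPM with ASC (1.13, SE 0.08, adjusted p = 9.808e-06). B2m, the light chain of MHC class I, changed by 0.95 (SE 0.08) and Tapbpl by 1.33 (SE 0.12). The 3 that were not called, Pdia3, Calr and Canx, are general chaperones of the endoplasmic reticulum, and of these Calr passed the adjusted p (0.01415) at a log2 fold change of 0.29, under the fold minimum.

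Between the proteasome and the transporter, peptides are trimmed by aminopeptidases and other peptidases. Of 6 tested genes of this kind, Erap1, the aminopeptidase of the endoplasmic reticulum, was the one called with ASC, at 21.0 to 33.2 CPM without and 49.0 to 67.7 CPM with ASC (1.08, SE 0.08, adjusted p = 8.473e-06). Of the cytosolic peptidases, Lap3 had 0.16 (adjusted p = 0.2484) and Npepps -0.10 (adjusted p = 0.7002). Of 5 genes of ubiquitin-like modifiers, 4 were called higher. Ube2l6, the conjugating enzyme of Isg15, changed by 1.52 (SE 0.13, adjusted p = 2.417e-05), Isg15 by 1.15 (SE 0.19), Uba7, its activating enzyme, by 1.11 (SE 0.18) and Ubd (FAT10), which targets proteins to the proteasome, by 2.48 (SE 0.43, adjusted p = 0.007469). Uba6, which activates Ubd and ubiquitin, was not called, with -0.15. Within the levels of iAs, edgeR called Ube2l6 both without and with iAs and Uba7 in neither (adjusted p = 0.0896 and 0.06523). It called Isg15 without iAs (1.51) but not with iAs (0.79, adjusted p = 0.2913). Ubd was called with iAs (3.06) but not without (1.91, adjusted p = 0.1709). DESeq2 called all 4 without iAs, and all but Isg15 with iAs.

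Markers of immune cells, in which the immunoproteasome is the usual form, were set beside these values. The summed level of 6 leukocyte markers was 404.3 to 511.4 CPM in tumors with ASC and 240.1 to 457.2 CPM in tumors without. The value of 457.2 was that of Control replicate 1, and the other 5 tumors without ASC reached at most 318.7. The sum of 7 T cell markers was 34.0 to 57.8 CPM with ASC, 66.2 CPM in Control replicate 1 and 10.8 to 14.6 CPM in the other tumors without ASC. Control replicate 1 had more T cell marker RNA than any tumor with ASC and more leukocyte marker RNA than 3 of them. Its sum of 8 macrophage markers, 1011 CPM, was below that of every tumor with ASC (1220 to 1707 CPM). Its Psmb9 level was 15.4 CPM, and the lowest tumor with ASC was at 31.7 CPM. Its Psmb8 (34.7 CPM) and Psmb9 levels were the highest among the tumors without ASC, and its Psmb10 level (41.7 CPM) was not. This is 1 tumor, which also stood apart in B cell and plasma cell markers (171.2 summed CPM). How immune cell content relates to the subunit levels was not tested.

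**Figure D5:**
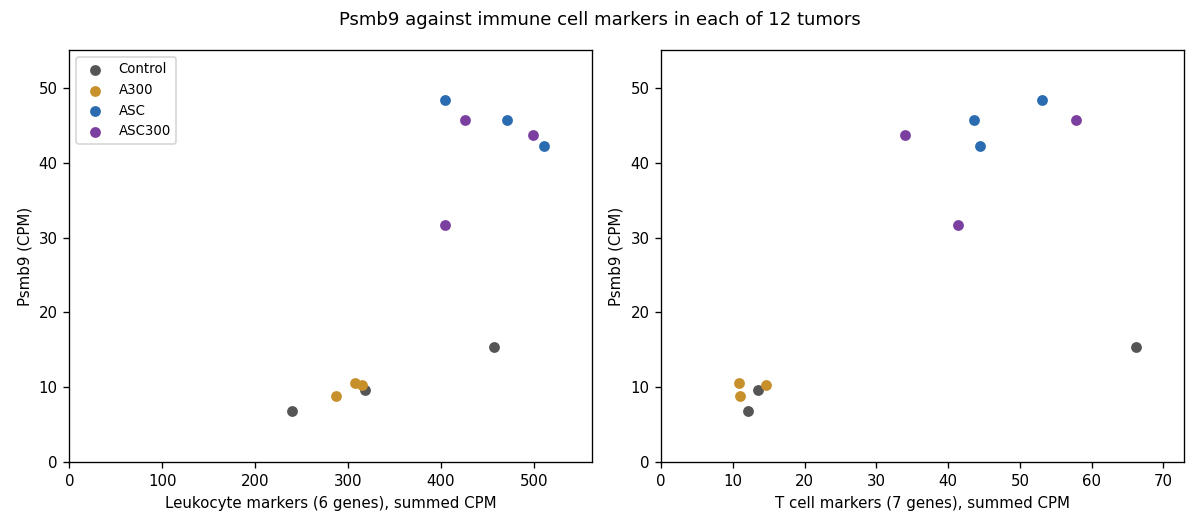
Psmb9 level (vertical axes, CPM) against the summed level of 6 leukocyte markers (left) and of 7 T cell markers (right, horizontal axes, CPM) in each of the 12 tumors, coloured by group. The tumors with ASC lie at 31.7 CPM of Psmb9 or more and the tumors without ASC at 15.4 or less, and Control replicate 1 lies at the right of the tumors without ASC, at 457.2 and 66.2 CPM of the markers.

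The sum of 8 macrophage markers was 1220 to 1707 CPM with ASC and 828.4 to 1175 CPM without, with no overlap. Of these 8 genes 1 was called, C1qb, with 0.61 (SE 0.09, adjusted p = 0.002133), while C1qa (0.55, adjusted p = 0.001344) and C1qc (0.56, adjusted p = 0.00212) passed the adjusted p but not the fold minimum. In ASC against Control all 3 were called, with 0.81 to 0.83, and in ASC300 against A300 none was, with 0.29 to 0.39. In the lists of leukocyte, T cell and natural killer cell markers, 1 gene each was called higher: Cd52 (0.90, adjusted p = 0.02344), Cd8a (2.20, adjusted p = 0.03812, with Cd3d and Cd8b1 also called by DESeq2) and Klre1 (1.33, adjusted p = 0.03657). In ASC against Control edgeR called none of Cd52 (0.84, adjusted p = 0.1709), Cd8a (1.11, adjusted p = 0.4594) and Klre1 (1.14, adjusted p = 0.2204). DESeq2 called Cd52 there, all of them in ASC300 against A300, and Cd8a lower in A300 against Control. Other T cell and natural killer cell markers had negative values in ASC against Control, without a call. These were Cd4 (-0.68), Cd2 (-0.32), Ncr1 (-0.51) and Klrb1c (-0.02). Over both levels of iAs, only Cd4 in these lists was negative (-0.11). No dendritic, B cell, fibroblast, endothelial, adipocyte, muscle or neuronal marker was called by edgeR or DESeq2 for ASC, with 4 genes at an unadjusted p under 0.05 among them. The sum of the epithelial markers moved the other way, at 26.9 to 48.6 CPM with ASC and 65.7 to 361.9 CPM without. Of these markers Krt8 was called lower (-2.03, SE 0.34, adjusted p = 0.006317). No other was called by edgeR or DESeq2, with Krt18 at -2.26, Krt19, Epcam and Cdh1 between -0.53 and -0.11, and Krt5 at 2.62. Every list had all of its markers detected in at least 1 tumor. What part these cell types had in the levels of the inducible subunits was not tested.

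Lastly, the genes most like the members were sought over the 12 tumors by Pearson's r with the mean of the standardised log2 CPM of each set, among 20780 genes outside it. The 8 genes most like the inducible set were Tapbp (0.99), Xaf1 (0.99), Tapbpl (0.99), Ube2l6 (0.99), Parp10 (0.98), Ifi35 (0.98), Sectm1a (0.98) and Zbp1 (0.98). The tumors fall into those with and without ASC, so that within the 6 tumors of each kind the values were lower, from 0.82 to 0.97 with ASC and from 0.51 to 0.80 without. The 5 genes most like the constitutive set were Psmd3, a 19S subunit (0.98), Cd81 (0.98), Ndufs8 (0.97), Eif5a (0.97) and Ran (0.97), and their values stayed between 0.95 and 1.00 within both kinds of tumor. Among the members, each of the 5 inducible genes followed the mean of the other 4 over the 6 tumors with ASC (r from 0.83 to 0.97), and less closely over the 6 without, from 0.57 for Psmb10 to -0.46 for Psme2. Points of one tumor share its library and depth, and these values are descriptions.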

How the data were processed

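The authors deposited 1 table of whole-number counts per Ensembl gene, without normalization, from poly(A) RNA of 12 tumors sequenced as stranded paired-end libraries. The submitters' processing notes name Cutadapt 1.1.0, HISAT2 2.0, StringTie 1.3.4, edgeR and DESeq2. The step that produced the counts, the genome build and the annotation are not given in the sources used here. Low counts were more frequent at 4 (1137 to 1298 genes per tumor) than at 3 (618 to 795) or 5 (380 to 414), so 1 count may not be 1 read pair.

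Of 55401 genes, 55141 took a symbol from GENCODE M21. Counts were fitted in edgeR 4.0.16 (R 4.3.3) with its quasi-likelihood test, TMM scaling, the filterByExpr filter and 1 mean per group over all 12 tumors, with Benjamini-Hochberg adjustment over 20818 genes. Calls needed an adjusted p under 0.05 and a 1.5-fold change. RPKM used the length of the principal transcript, and log2 CPM a prior count of 2. Ratios were tested by exact permutation in Python 3.11.15 with NumPy 2.4.6. DESeq2 1.42.0 was an alternative. The fit and the permutation test were checked on simulated data.

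The members and the gene lists were chosen with earlier results of these data known. All members are named. Of each other list, up to 4 genes with the smallest p for ASC are named, and the 8 and 5 genes most like the inducible and constitutive sets. The other genes named were chosen after their values were seen. They were Tap2, H2-K1, H2-D1, Tnf, the receptors, the endoplasmic reticulum chaperones and Uba6. Adrm1, Psmb4, Cd2, Cd4 and the Psme4 values in A300 were also chosen in this way. Paaf1 and Nrdc had no matching symbol and are not analysed here, and 1 listed gene of the inducer pathway is not reported here. A mouse, with its tumors combined, is a replicate.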

Additional observations from a re-analysis of the deposited data

How the results depend on the processing

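Calls were recomputed with DESeq2, DESeq2 size factors, other count filters, no fold minimum, only the groups compared, each tumor left out, and, added after seeing the data, counts divided by 4, a GC content offset and the sum of Psme2 and Psme2b. No called value and no ratio changed sign. Fold changes near 0 that were not called did, such as that of Psmb8 in A300 against Control, which ran from -0.23 to 0.34 on the log2 scale and was positive in 10 of 20 alternatives, and those of Psme3 in every comparison. The count of constitutive genes called in A300 against Control, 1 of 4, was 0 without the filter on low counts, 0 with the GC content offset, and 0 to 1 with 1 tumor left out. In ASC against Control that count, 0, was 0 to 1 with 1 tumor left out, the 1 being Psmb5 without ASC replicate 1. The count of inducible genes called stayed at 5 of 5 for ASC over both levels of iAs under every alternative. The cause of these changes was not tested.

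The replicate numbers are the same in each group, but the labels do not say that they mark a shared cage or day. Deviations of same-numbered tumors correlated at -0.124 to 0.172 and those of other tumors at -0.222 to 0.246. Of 12 tumors, 4 were most alike to one of their own number. The ranges overlap, and with few tumors per group they cannot show whether same-numbered tumors shared a cage or day. With a replicate block, 5 inducible genes were called in ASC against Control in place of 4, 4 in ASC300 against Control and 4 in ASC300 against A300, and 1 constitutive gene was called in A300 against Control.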

Other observations

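The core subunits that belong to single tissues were nearly silent in these tumors. Psmb11, the beta subunit of the thymus, reached at most 4 counts in a tumor and did not pass the filter on low counts. Psma8, the alpha subunit of the testis, reached at most 18 counts and was not called for ASC (log2 fold change -1.41, adjusted p = 0.522).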
